A study of Mus musculus with 11 samples.

Results

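Protein depalmitoylases are enzymes that remove the fatty acid palmitate from cysteines of other proteins. The 9 mouse genes described here are Lypla1, Lypla2, Lyplal1, Abhd17a, Abhd17b, Abhd17c, Ppt1, Ppt2 and Abhd10. They were picked by gene symbol from the 48709 gene IDs of the count tables, all 9 symbols were found, and all 9 passed the filter on low counts that left 16235 genes for testing. The set was built around Lypla1, whose decrease in this same comparison had been seen, so the differences of the 9 genes between the groups are given as a description, without p-values. How many of them passed the test run over all genes is given once, and nothing is read from it.

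RNA was sequenced from primary mouse hippocampal neurons, which are neurons taken from the hippocampus and cultured, here for 10 days at 20% oxygen. The hypoxia group was 5 libraries from cells then kept at 1% oxygen for 4 h in a hypoxia workstation. The control group was 6 libraries from cells left at 20% oxygen. No genetic change, drug or animal age is given for either group in the labels, and the control cells were of the isolation that also gave the hypoxic cells. It is not stated whether libraries of a group came from separate dishes or isolations, or which hypoxia and control libraries shared an isolation. The main test therefore pairs no libraries. Its p-values below measure the spread between libraries, which may in part be technical.

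Palmitoylation is a reversible lipid modification: acyltransferases of the ZDHHC family attach palmitate to cysteines, and thioesterases take it off again. In neurons the cycle moves scaffold proteins, receptors, G proteins and small GTPases on and off membranes, and the postsynaptic scaffold PSD-95 is a much studied example. Known thioesterases act in different places: LYPLA1 and LYPLA2 (also called acyl-protein thioesterases) in the cytosol, the ABHD17 proteins at membranes, PPT1 and PPT2 in the lysosome, and ABHD10 in mitochondria. LYPLAL1 is a relative of the LYPLA enzymes.

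All 9 belong to the serine hydrolases, in which the active serine usually sits in a Gly-X-Ser-X-Gly stretch, X being any amino acid. The codons of that stretch are shown to compare the near relatives with each other. Each line is 27 bases of coding sequence, 5′ to 3′, from the GENCODE M21 transcripts on GRCm38, and capitals mark the 15 bases of the 5 codons.
Lypla1: ttgggaGGATTTTCTCAGGGAggcgcc
Lypla2: ctgggtGGCTTCTCGCAGGGTggggcc
Lyplal1: atagggGGATTTTCTATGGGAggctgc
Ppt1: gctattGGCTTCTCCCAGGGAggccag
Abhd17a: ctgtatGGCCAGAGCATTGGCactgtg
Abhd17b: atatatGGCCAGAGCATAGGGacagtg
Abhd17c: ctctatGGACAGAGCATTGGCactgtc
Abhd10: ctggttGGATCCAGTCTTGGTggatgg
The serine codon of the Lypla1 stretch was codon 119, and the stretch ran across the junction of exons 6 and 7. In the Abhd17 genes the printed serine was codon 190 (Abhd17a), 170 (Abhd17b) and 202 (Abhd17c). Abhd17a, Abhd17b and Abhd10 held 2 such stretches in frame and Abhd17c held 3, and the one printed was picked as the likely active-site stretch. The Ppt2 transcript held none.

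The starts of the coding sequences show cysteine codons, where palmitate could be attached to the enzymes themselves. LYPLA1, LYPLA2 and the ABHD17 proteins are known to be palmitoylated near their amino terminus. The lines give the first 60 bases, 5′ to 3′, with cysteine codons in capitals.
Lypla1: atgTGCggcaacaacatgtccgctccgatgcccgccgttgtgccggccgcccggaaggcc
Lypla2: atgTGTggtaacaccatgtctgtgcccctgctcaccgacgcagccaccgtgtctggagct
Abhd17a: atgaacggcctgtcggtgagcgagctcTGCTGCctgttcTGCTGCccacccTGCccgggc
Abhd17b: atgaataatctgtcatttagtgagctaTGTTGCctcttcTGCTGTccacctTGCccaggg
Abhd17c: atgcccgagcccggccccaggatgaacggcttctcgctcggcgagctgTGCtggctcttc
Lypla1 and Lypla2 each had a single cysteine codon there, at codon 2. Abhd17a and Abhd17b each had 5, at codons 10, 11, 14, 15 and 18. Abhd17c had 1, at codon 17. Its coding sequence opens with codons that precede the stretch matching the Abhd17a start, so its 60 bases end earlier in that stretch. Its number therefore cannot be set against the 5 of its relatives. Over the whole coding sequence, aligned end to end, Lypla1 and Lypla2 were 63.9% identical in bases (437 of 684 aligned). Abhd17a and Abhd17c were 74.2% identical, Abhd17a and Abhd17b 70.1%, and Abhd17b and Abhd17c 69.1%, while no other pair of the 9 was above 46.9%.

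Total counts were 22688096 to 31917157 in hypoxia libraries and 16619493 to 31416241 in control libraries. The unit of level is CPM, a gene's count per 1000000 counts of its library, with library totals adjusted by the trimmed mean of M values (TMM). Of the 16235 genes tested, 3722 (22.9%) had a Benjamini-Hochberg adjusted p under 0.05 in edgeR and are said to be called, with 1644 (10.1%) higher and 2078 (12.8%) lower in hypoxia. The median log2 fold change over all tested genes was -0.02. Of 6 genes used to check the low oxygen, 5 were higher in hypoxia. Their log2 fold changes were 2.06 for Adm, 1.55 for Slc2a1, 1.47 for Egln3, 1.02 for Vegfa and 1.01 for P4ha1. Bnip3 was not called (0.33, adjusted p = 0.0517). Exons of Bnip3 share 22.3% of their bases with Gm45507, so its value is uncertain. Control 1 and control 2 stood apart from the other control libraries along the second principal component.

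Neuron markers were abundant, and glial markers were present too. The summed level of 10 neuron markers ran from 5760 to 6219 CPM in hypoxia and from 5691 to 6239 CPM in control, and that of 7 astrocyte markers from 3041 to 3325 CPM in hypoxia and from 3038 to 3329 CPM in control. The 8 markers of the oligodendrocyte lineage summed to 96.3 to 126 CPM in hypoxia and 114 to 159 CPM in control, and 3 of them (Mog, Olig1 and Olig2) were lower in hypoxia, with a list median of -0.27 on the log2 scale. The 7 microglia markers summed to 15.2 to 17.8 CPM in hypoxia and 15 to 17.5 CPM in control. The 8 endothelial and fibroblast markers summed to 111 to 196 CPM in hypoxia and 123 to 157 CPM in control. No marker was at 0 in all libraries. Of the other markers, Syn1 was higher and Aqp4 lower. The calls of Syn1, Aqp4 and Olig2 were lost in 5, 8 and 13 of 18 alternative fits, those of Aqp4 and Olig2 among others without control 1 and control 2 together. In such bulk libraries, fewer cells of a type and less RNA per cell cannot be told apart, and the part of the oligodendrocyte markers in the differences below was not tested.

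Lypla1 (ENSMUSG00000025903, chr1:4807788-4848410 on GRCm38, plus strand) encodes the cytosolic acyl-protein thioesterase that acts on Ras and G protein alpha subunits. It was at 9.21, 7.91, 13.1, 16.3 and 15.3 CPM in hypoxia libraries 1 to 5, and its lowest, median and highest levels in control were 22.5, 23.5 and 26.8 CPM. Every hypoxia library lay below every control library. The means were 12.3 ± 3.67 CPM in hypoxia and 23.9 ± 1.6 CPM in control (SD, n = 5 and 6), a log2 fold change of -0.95 (SE 0.14), or 0.518 of the control level. Counts are per gene, so a change in some Lypla1 transcripts cannot be told from a change in all of them. A larger decrease was found for 93 of the 16235 tested genes.

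The hypoxia libraries also differed among themselves. On the log2 scale the SD of Lypla1 was 0.46 in hypoxia and 0.09 in control, and the highest library was 2.06 times the lowest in hypoxia and 1.19 times in control. Hypoxia 2 had 210 counts, or 7.91 CPM with an exact Poisson 95% interval of 6.87 to 9.05, and hypoxia 4 had 402 counts, or 16.3 CPM with an interval of 14.7 to 17.9. These intervals cover counting error only, and they do not overlap. Hypoxia 1 and 2 were the low libraries and hypoxia 4 and 5 the high ones. The check genes did not share that order: Slc2a1 was at 65.1, 66.4, 72.4, 62.3 and 67.0 CPM and Adm at 10.5, 11.7, 10.8, 9.87 and 13.0 CPM in hypoxia libraries 1 to 5.

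**Figure D1:**
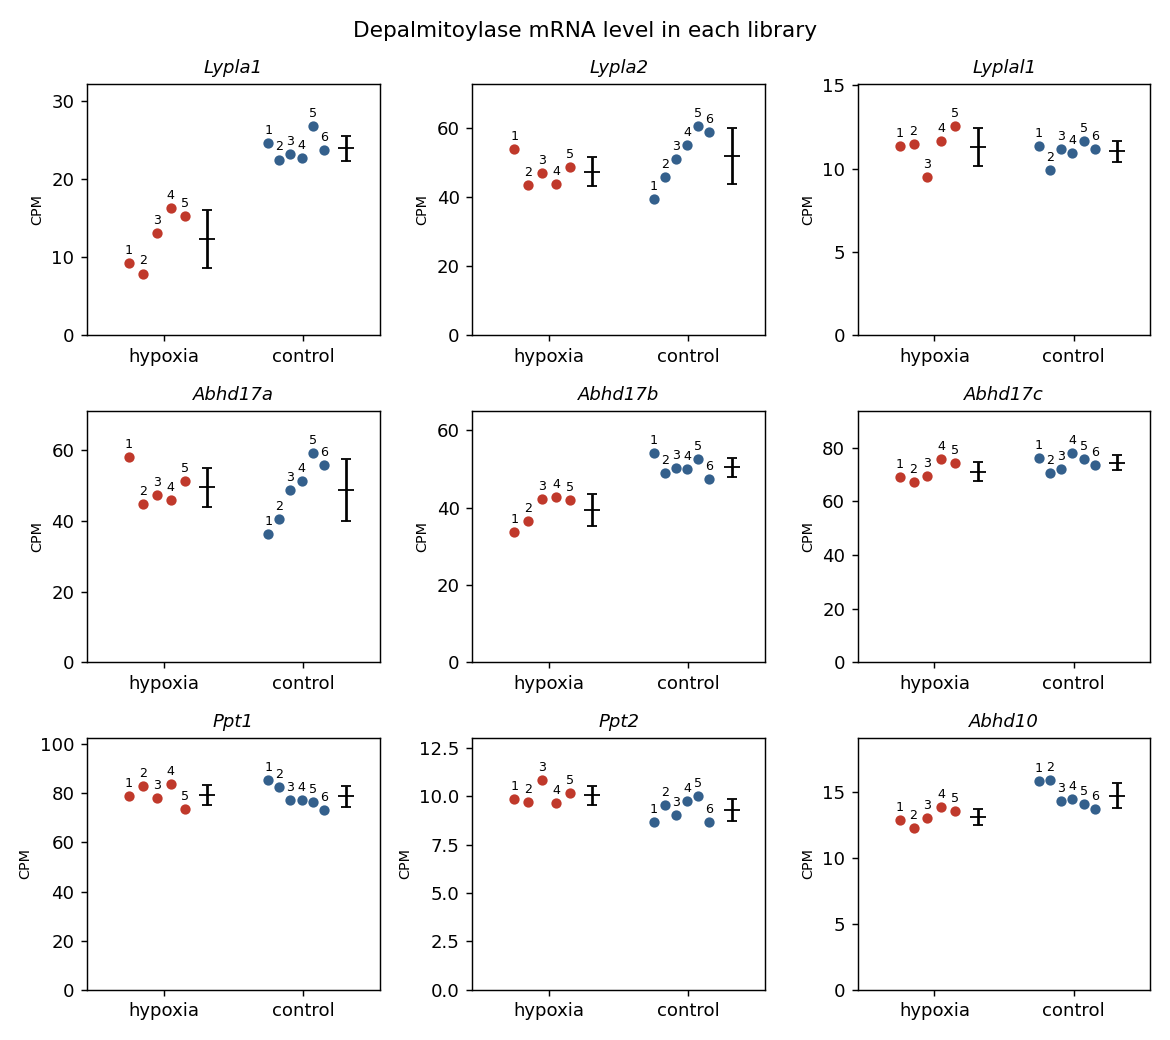
Level of each depalmitoylase mRNA in CPM (y axis, from 0, a scale per gene) in 5 hypoxia libraries (red, left) and 6 control libraries (blue, right), each point a library with its number and each bar the mean and SD. Lypla1 and Abhd17b have no overlap between groups (highest hypoxia libraries 16.3 and 42.7 CPM, lowest control libraries 22.5 and 47.5 CPM), and the points of the other 7 genes overlap.

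Lypla2 (ENSMUSG00000028670, chr4:135968224-135972626, minus strand) encodes the closest relative of LYPLA1. It was at 53.8, 43.5, 47.0, 43.7 and 48.5 CPM in hypoxia libraries 1 to 5, and its lowest, median and highest levels in control were 39.4, 52.9 and 60.6 CPM. All hypoxia libraries lay within the range of the control libraries, where control 1 was the lowest and control 5 the highest. The means were 47.3 ± 4.23 CPM in hypoxia and 51.8 ± 8.09 CPM in control, a log2 fold change of -0.14 (SE 0.09). Without control 1 and control 2 it was -0.23.

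Lyplal1 (ENSMUSG00000039246, chr1:186087731-186117310, minus strand) had hypoxia libraries between 9.47 and 12.6 CPM and control libraries between 9.88 and 11.7 CPM. The groups overlapped, and the log2 fold change was 0.04 (SE 0.07).

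Set against each other per kb of the principal transcript, the counted level of Lypla2 was above that of Lypla1 in every library. The ratio of Lypla2 to Lypla1 was 9.01, 8.49, 5.55, 4.14 and 4.89 in hypoxia libraries 1 to 5, and its lowest, median and highest values in control were 2.47, 3.43 and 3.82. No hypoxia library reached into the control range, and the means of the ratio were 6.42 ± 2.19 in hypoxia and 3.34 ± 0.489 in control. The size of the ratio depends on the length used: per kb of all annotated exons of each gene, the means were 14.5 ± 4.95 in hypoxia and 7.53 ± 1.10 in control, again without overlap. Exons of Lypla1 share 629 bases with Gm37988, and if reads there were dropped, the ratio is too high in both groups.

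The Abhd17 genes encode membrane-bound hydrolases that remove palmitate from PSD-95 and N-Ras. Of this trio Abhd17b (ENSMUSG00000047368, chr19:21653185-21685637, plus strand) differed most. It was at 33.6, 36.6, 42.1, 42.7 and 42.0 CPM in hypoxia libraries 1 to 5, and its lowest, median and highest levels in control were 47.5, 50.0 and 54.2 CPM. All hypoxia libraries lay below all control libraries, and hypoxia 1 and 2 were again the lowest. The means were 39.4 ± 4.09 CPM in hypoxia and 50.5 ± 2.45 CPM in control, a log2 fold change of -0.36 (SE 0.06) or 0.782 of the control level. A larger decrease was found for 1479 tested genes.

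Abhd17a (ENSMUSG00000003346, chr10:80583654-80590341, minus strand) was at 58.2, 44.8, 47.3, 46.0 and 51.3 CPM in hypoxia libraries 1 to 5, and its lowest, median and highest levels in control were 36.5, 50.1 and 59.3 CPM. The hypoxia values lay within the control range. As for Lypla2, control 1 was the lowest library, control 5 the highest of the control libraries and hypoxia 1 the highest of the hypoxia libraries. The log2 fold change was 0.02 (SE 0.10), and it ran from -0.10 to 0.10 over the alternative fits.

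Abhd17c (ENSMUSG00000038459, chr7:84109356-84151893, minus strand) ran from 67.1 to 75.6 CPM in hypoxia and from 70.5 to 78.1 CPM in control. The groups overlapped, with a log2 fold change of -0.06 (SE 0.04). Abhd17b made up 21.1 ± 2.16% of the summed level per kb of the trio in hypoxia and 25.3 ± 2.26% in control. The highest hypoxia library and the lowest control library nearly touched, both at 22.8%. Per kb of all annotated exons the shares were 22.7 ± 2.56% in hypoxia and 27.4 ± 2.96% in control, and the groups overlapped.

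The lysosomal enzymes differed by less than Abhd17b. Ppt1 (ENSMUSG00000028657, chr4:122836242-122859175, plus strand), mutated in humans in an infantile form of neuronal ceroid lipofuscinosis, averaged 79.4 ± 4.07 CPM in hypoxia and 78.7 ± 4.47 CPM in control. The log2 fold change was 0.01 (SE 0.05), and hypoxia libraries between 73.6 and 83.6 CPM overlapped with control libraries between 73.2 and 85.5 CPM. Ppt2 (ENSMUSG00000015474, chr17:34616662-34628510, minus strand) averaged 10.0 ± 0.491 CPM in hypoxia and 9.28 ± 0.579 CPM in control, a log2 fold change of 0.11 (SE 0.06), and its groups overlapped too.

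Abhd10 (ENSMUSG00000033157, chr16:45729725-45742955, minus strand) encodes the mitochondrial enzyme, known to act on the peroxidase PRDX5. It was at 12.9, 12.2, 13.0, 13.8 and 13.6 CPM in hypoxia libraries 1 to 5, and its lowest, median and highest levels in control were 13.7, 14.4 and 15.9 CPM. The groups overlapped in their margins only, with hypoxia 4 above the lowest control library. The log2 fold change was -0.16 (SE 0.06).

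Of the 9 genes, 2 (Lypla1 and Abhd17b) were called, both lower in hypoxia, beside 22.9% of all tested genes called and 12.8% called lower. The alternative fits called 2 or 3 of the 9. The groups did not overlap for Lypla1 and Abhd17b, beside 14% of all tested genes without overlap and 7.26% lower without overlap. Since the set was chosen on this comparison, nothing is read from these counts. In the authors' deposited table of decreased genes, Lypla1 is listed with a log2 fold change of -0.94 and Abhd17b with -0.35, and none of the other 7 genes is in their lists of 2099 higher and 1693 lower genes.

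Levels of different genes can be compared only per length, here as CPM per kb of the principal transcript. In hypoxia libraries Abhd17a (33.7 ± 3.71), Ppt1 (33.4 ± 1.71), Abhd17c (31.8 ± 1.62) and Lypla2 (29.1 ± 2.6) stood at the top. In control libraries Abhd17c (33.2 ± 1.28), Abhd17a (33.2 ± 6.0), Ppt1 (33.1 ± 1.88) and Lypla2 (31.8 ± 4.98) did not differ beyond their spread. Abhd17b came next, at 17.4 ± 1.81 in hypoxia and 22.4 ± 1.09 in control. Lypla1 stood well below, at 4.92 ± 1.47 in hypoxia and 9.55 ± 0.639 in control. Lyplal1 was at 7.16 ± 0.718 in hypoxia and 6.99 ± 0.389 in control, Ppt2 at 5.74 ± 0.280 in hypoxia and 5.30 ± 0.331 in control, and Abhd10 at 4.60 ± 0.218 in hypoxia and 5.16 ± 0.333 in control.

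By this length Lypla1 was the eighth most abundant of the 9 in hypoxia and the sixth in control. In hypoxia the mean levels of Ppt2 and Abhd10 lay within its spread. Its share of the summed level of the 9 genes was 2.92 ± 0.826% in hypoxia and 5.29 ± 0.292% in control. The summed level itself was 168 ± 5.88 in hypoxia and 181 ± 9.93 CPM per kb in control. With the length of all annotated exons, which for Lypla1 is 7.145 kb in place of 2.507 kb, Lypla1 was the lowest of the 9 in both groups, at 1.73 ± 0.514 in hypoxia and 3.35 ± 0.224 CPM per kb in control. By that length Abhd10 was at 3.53 in hypoxia and 3.96 in control and Ppt2 at 3.84 in hypoxia and 3.55 in control, and the share of Lypla1 was 1.41 ± 0.409% in hypoxia and 2.58 ± 0.167% in control. Its place among the 9 and its share therefore rest on the length chosen.

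**Figure D2:**
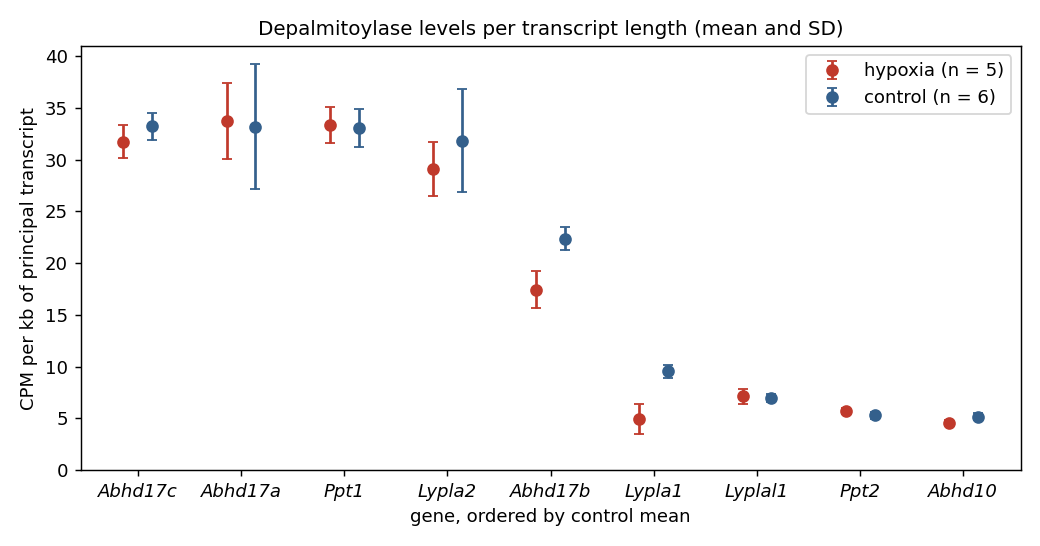
Level of each gene in CPM per kb of its principal transcript (y axis, linear, from 0) in hypoxia (red, left of each pair, n = 5) and control (blue, n = 6), as mean and SD, with genes ordered by control mean. Lypla1 is at 4.92 in hypoxia and 9.55 in control, below the 4 genes near 30 in both groups.

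Reads could be exchanged with overlapping genes, because the library kit does not mark the strand and the rule for reads that match several places is not given in the sources used here. The exons of Lypla1 share 629 bases with Gm37988 on the same strand, which had 0 counts in all libraries, and those of Ppt2 share 957 bases with Gm20460, also at 0. Ppt1 shares 129 bases with Cap1 on the opposite strand, and Cap1, which encodes an actin-binding protein, was higher in hypoxia (317 ± 6.13 CPM) than in control (290 ± 6.38 CPM; log2 fold change 0.13, adjusted p = 0.00545). Abhd10 shares 426 bases with the antisense gene Gm15591, which had 2 to 13 counts per library. Gm38268 and Gm29093 lie within introns of Lyplal1 and Abhd17a, with 0 to 5 and 18 to 46 counts. Whether reads in shared exon bases were dropped from both genes, which would lower the level of Lypla1 or Ppt2 per kb in both groups, is not given.

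Of all 50-base words of its transcripts, the read length used, 8.93% for Lypla1, 2.18% for Ppt1, 9.85% for Abhd10 and 32.3% for Ppt2 also occurred in another gene, counting the overlapping genes just named. Leaving out genes that overlap the member, 2.03% of the Lypla1 words (148 of 7276) occurred in genes elsewhere and 0% of the words of the other 8.

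The transcripts differ in base composition. Lypla1 and Abhd17b have the lowest GC content of the 9, at 37.9% and 37.7%, and Lypla2 and Abhd17a the highest, at 61.4% and 64.7%, beside a median of 50.4% over tested genes with a value. Among the 14011 tested genes with a GC value the median log2 fold change was -0.08 in the 640 genes under 40% GC and -0.07 in the 714 genes over 60%. With a correction of each library for GC content, the log2 fold change was -0.86 for Lypla1 and -0.26 for Abhd17b.

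The genes beside Lypla1 on chromosome 1 were not called. Mrpl15, a mitochondrial ribosomal protein gene 22048 bases away on one side, was at 33.8 ± 1.34 CPM in hypoxia and 33.5 ± 2.0 CPM in control (log2 fold change 0.02, SE 0.05, adjusted p = 0.857). Tcea1, an elongation factor gene 9403 bases away on the other side, was at 17.2 ± 1.23 CPM in hypoxia and 17.0 ± 0.937 CPM in control (0.03, SE 0.06, adjusted p = 0.810). Gm37988, which overlaps Lypla1, ends at base 4886770, past the start of Tcea1. Whether it shares exon bases with Tcea1 was not examined. Over the 18 nearest tested neighbours of the 9 genes, 4 (22.2%) were called, close to the 22.9% of all genes. Among these, named after their values were seen, were Pithd1 beside Lypla2 (0.11), Phldb2 beside Abhd10 (-0.40) and Cemip2 (-0.43). Cemip2 lies 92704 bases from Abhd17b and was at 15.1 ± 1.41 CPM in hypoxia and 20.3 ± 1.24 CPM in control (adjusted p = 0.000196).

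Lypla1 is also known as a target of a microRNA. In rat hippocampal neurons miR-138 represses Lypla1 and limits the size of dendritic spines. The lines give the mature mouse miRNA from RefSeq (GRCm38.p6, chr9:122682898-122682920, plus strand) with its seed, bases 2 to 8, in capitals, and the places in member 3′ UTRs that match the seed, with the match CACCAGC in capitals.
miR-138-5p: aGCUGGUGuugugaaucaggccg
Lypla1: cttgagtagaagttCACCAGCa
Abhd10: ctgcagtctactttCACCAGCc
The Lypla1 match lies at chr1:4845031-4845052 on the plus strand and the Abhd10 match at chr16:45730767-45730788 on the minus strand, both on GRCm38. The other 7 transcripts held no match, and 2265 of 20185 annotated 3′ UTRs (11.2%) held at least 1. A seed match is a stretch of letters and not a measured site. The miRNA itself is not measured by poly(A) libraries: Mir138-1 had 1 to 6 counts and Mir138-2 had 0 in all libraries.

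Promoter windows of RefSeq (GRCm38.p6, 250 bases before to 50 after each start) were found for 8 genes, and not for Lypla1. They were searched on both strands for ACGTG and GCGTG, the core of the element bound by hypoxia-inducible factors, for CACGTG, which contains ACGTG, and for TGACG, the core of the cAMP response element. Among 32851 windows, 19.6% held ACGTG, 32.4% GCGTG, 7.15% CACGTG and 20.8% TGACG. The windows of Lypla2, Abhd17a and Abhd17b held none of them. ACGTG was found in the windows of Lyplal1 and Abhd10 and in 2 of the 5 windows of Ppt2. GCGTG was found in those of Abhd17c, Ppt1 and Abhd10 and in 2 windows of Ppt2. TGACG was found in the window of Lyplal1 and in 3 windows of Ppt2. The 2 Ppt2 windows with ACGTG overlap, hold the same ACGTG site and share their TGACG sites. The single window with CACGTG was that of Abhd10 (chr16:45742999-45743024, minus strand), shown with the match in capitals.
Abhd10: gaacaaatccCACGTGatgcttgtaa

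Genes were compared with Lypla1 by the Pearson correlation of log2(CPM + 0.5) over all 11 libraries. The 10649 genes compared had a mean of at least 5 CPM. Unnamed genes and genes with predicted, clone or accession names were left out. The highest of those compared were Ccdc85a (r = 0.984) and Serbp1 (0.984), an mRNA-binding protein gene. Next came Ube2v2 (0.977), a ubiquitin-conjugating enzyme variant, Pdcl (0.977), a phosducin-like chaperone, and Dr1 (0.976), a transcriptional repressor. For all 5 the highest hypoxia library lay below the lowest control library, with log2 fold changes of -0.33, -0.27, -0.30, -0.26 and -0.49 in that order, smaller than that of Lypla1. The correlation is a description over 11 libraries that fall into 2 groups. Transcript GC content of the 5 was 43.8, 39.8, 35.1, 46.0 and 40.9% in the same order, beside a median of 50.4% over tested genes. The levels were not corrected for GC content, and its part in the likeness was not tested.

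Taking deviations from the group means, the most alike of the same compared genes were Nxph2 (r = 0.974), Gt(ROSA)26Sor (0.938), Ccdc85a (0.934), Serbp1 (0.930) and Slc25a16 (0.923). Nxph2, which encodes the secreted protein neurexophilin 2, was at 5.31, 4.78, 7.41, 8.37 and 7.93 CPM in hypoxia libraries 1 to 5, and its groups overlapped (6.76 CPM in hypoxia and 8.0 CPM in control on average; log2 fold change -0.24, adjusted p = 0.215). Gt(ROSA)26Sor, a noncoding gene, was at 4.52, 4.14, 6.45, 9.14 and 9.45 CPM in hypoxia, below every control library (mean 12 CPM; log2 fold change -0.82, adjusted p = 0.00201). In both, hypoxia 1 and 2 were low and hypoxia 4 and 5 high. On the log2 scale the SD of Lypla1 was 0.46 in hypoxia and 0.09 in control, so these correlations rest mostly on the 5 hypoxia libraries. The genes were chosen from 10649 for their likeness to Lypla1 over these libraries, so high values arise in part from the choice and their order is a description.

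Of the other 8 genes of the set, Abhd17b came closest to Lypla1, with r = 0.957 over libraries and 0.823 over deviations. Lypla1 and Abhd17b also have the lowest GC content of the set, and these levels were not corrected for it. Abhd10 had 0.797 over libraries and 0.461 over deviations, and Abhd17c 0.737 and 0.724. For Lypla2, the near relative, r was 0.27 over libraries and -0.01 over deviations. For Lyplal1, Abhd17a, Ppt1 and Ppt2 it was between -0.47 and -0.05 over libraries.

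**Figure D3:**
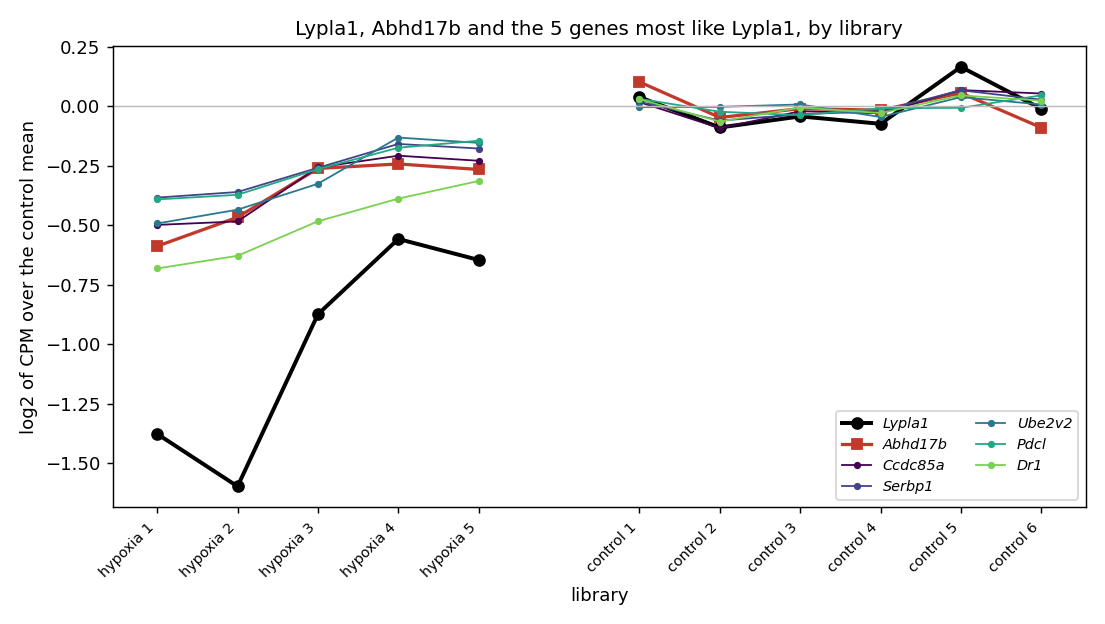
Level of Lypla1 (black), Abhd17b (red squares) and the 5 compared genes most correlated with Lypla1 in each library (x axis). The y axis is log2 of CPM over the control mean, and lines join the points of a gene. Unnamed genes and genes with predicted, clone or accession names were not compared. Hypoxia 1 and 2 are the lowest libraries of all 7 genes, and Lypla1 is lowest in hypoxia 2 (7.91 CPM).

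The enzymes that attach palmitate differed in both directions, with more decreases than increases. Of 24 ZDHHC acyltransferase genes 21 were tested (not Zdhhc11, Zdhhc19 and Zdhhc25), and 2 were higher and 7 lower in hypoxia, that is 42.9% called beside 22.9% of all genes. The median log2 fold change of the 21 was -0.13, beside -0.02 over all genes, and 15 of the 21 were below 0. Over the alternatives 5 to 9 were lower. The replicate block gave 5, leaving out control 5 or hypoxia 2 gave 6, and leaving out control 1 and control 2 together gave 9.

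Zdhhc20, a plasma membrane acyltransferase, fell to 41.5 ± 1.37 CPM in hypoxia, against 52.3 ± 2.83 CPM in control (log2 fold change -0.33, SE 0.04, adjusted p = 5.23e-05). Zdhhc24 fell to 18.7 ± 2.04 CPM in hypoxia, against 26.0 ± 1.41 CPM in control (-0.47, SE 0.07, adjusted p = 9.74e-05). Zdhhc9, which acts on Ras proteins and is a gene of X-linked intellectual disability in humans, was higher, at 87.7 ± 1.64 CPM in hypoxia and 73.9 ± 3.16 CPM in control (0.25, SE 0.04, adjusted p = 0.000164). The groups of these 3 genes did not overlap.

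The other called acyltransferase genes, named after their values were seen, were Zdhhc5 (0.14), which acts at synapses, and the lower Zdhhc13 (-0.28), Zdhhc23 (-0.43), Zdhhc14 (-0.23), Zdhhc21 (-0.18) and Zdhhc12 (-0.40). The call of Zdhhc21 (adjusted p = 0.0161) was lost in 2 of 18 alternatives (with the replicate block and without control 1 and control 2 together) and that of Zdhhc12 (adjusted p = 0.0244) in 4, with adjusted p up to 0.0783 and 0.0726. Zdhhc12 was lost with the replicate block, without control 5, without hypoxia 2 and without hypoxia 4. Zdhhc2, a PSD-95 acyltransferase also named after its values were seen, was at 110 ± 11.1 CPM in hypoxia and 122 ± 4.83 CPM in control and was not called (-0.15, adjusted p = 0.0599). The authors' deposited tables list the same 9 genes in the same directions.

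Among 3 cofactors of these enzymes, 1 was lower and none higher (33.3% called, beside 22.9% of all genes). With so few genes, nothing is read from this share. Golga7, the partner of ZDHHC9, fell to 24.3 ± 1.35 CPM in hypoxia, against 29.0 ± 1.29 CPM in control (log2 fold change -0.25, SE 0.05, adjusted p = 0.00157). Selenok, the partner of ZDHHC6, with a log2 value of -0.13 (adjusted p = 0.210), and Golga7b, a partner of ZDHHC5, with 0.09 (adjusted p = 0.228), were not called. Without control 5, 1 cofactor gene was called higher, and without hypoxia 5, 2 were called lower.

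**Figure D4:**
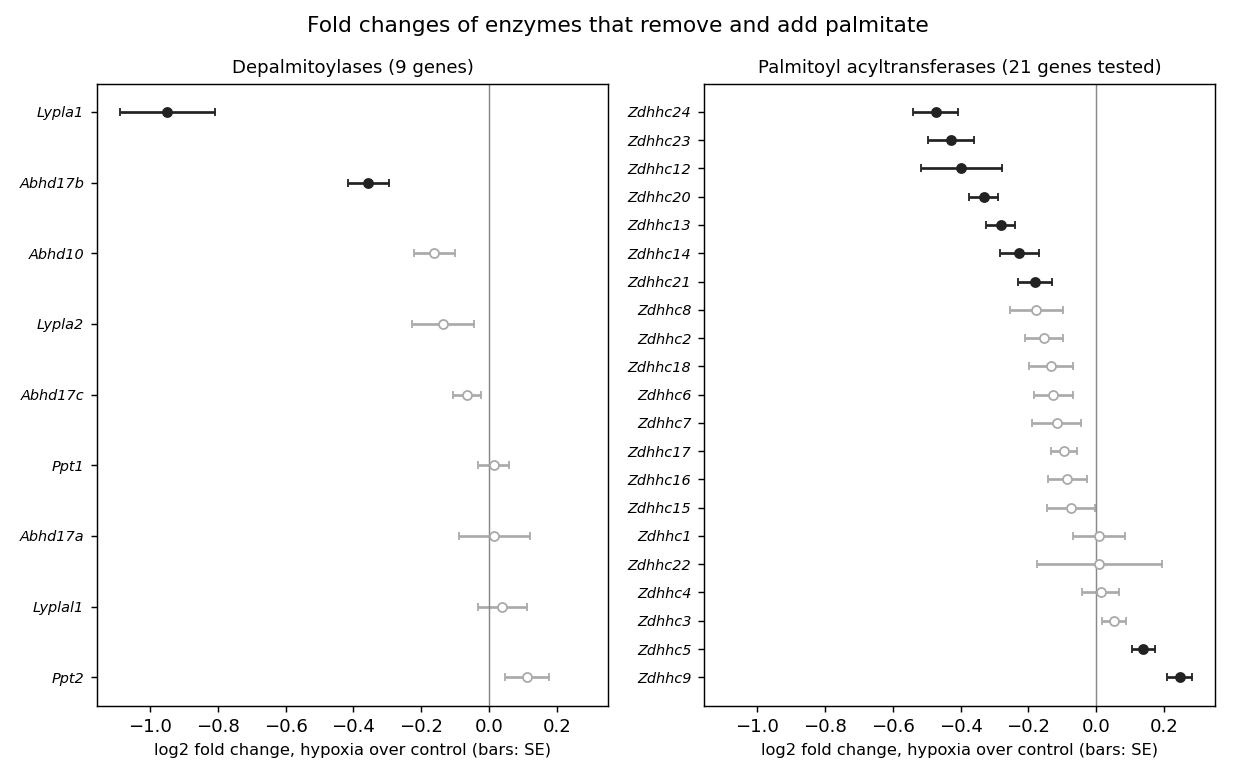
Log2 fold change of hypoxia over control with its SE (x axis) for the 9 depalmitoylase genes (left) and the 21 tested acyltransferase genes (right), filled points being called in edgeR over all genes. Lypla1, around whose decrease the set was built, is at -0.95, and the acyltransferase genes run from -0.47 for Zdhhc24 to 0.25 for Zdhhc9.

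Of 32 neuronal proteins known to carry palmitate, 5 were higher and 4 lower (28.1% called, beside 22.9% of all genes), with a median log2 fold change of 0.01. Gna13, a G protein alpha subunit, was at 136 ± 3.88 CPM in hypoxia and 102 ± 6.03 CPM in control (0.41, SE 0.04, adjusted p = 4.91e-06). Grip1, an AMPA receptor scaffold and ZDHHC5 substrate, was at 71.1 ± 4.03 CPM in hypoxia and 61.3 ± 1.11 CPM in control (0.21, adjusted p = 0.00107). Gnai1, an inhibitory G protein alpha subunit, fell to 290 ± 31.4 CPM in hypoxia, against 342 ± 7.47 CPM in control (-0.24, adjusted p = 0.00529).

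Substrates of the ABHD17 enzymes, singled out after their values were seen, were not called. Dlg4, the PSD-95 gene, was at 503 ± 21.8 CPM in hypoxia and 500 ± 42.6 CPM in control (0.01, SE 0.05, adjusted p = 0.951), and Nras at 172 ± 10.0 CPM in hypoxia and 176 ± 3.67 CPM in control (-0.04, SE 0.04, adjusted p = 0.549). The remaining called genes were Grin2b, Dnajc5 and Kcnma1 (higher) and Cnr1, Rhob and Gnas (lower), of which Dnajc5, Kcnma1 and Gnas lost their calls in 3, 6 and 3 alternatives. Exons of Gnas share 22% of their bases with Nespas and Gm20721, so its value is uncertain. Without hypoxia 4 the number of higher genes was 3.

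The other hydrolases with ABHD names gave 2 higher and 2 lower of 14 tested (28.6% called, beside 22.9% of all genes; median log2 fold change -0.01). Abhd14b fell to 2.17 ± 0.358 CPM in hypoxia, against 4.11 ± 0.410 CPM in control (-0.92, SE 0.12, adjusted p = 3.85e-05). Its exons share 28.4% of their bases with Abhd14a and Gm28959, so that value is uncertain. Abhd2 was at 210 ± 5.48 CPM in hypoxia and 186 ± 2.03 CPM in control (0.18, adjusted p = 0.000418), and Abhd18 at 27.9 ± 2.85 CPM in hypoxia and 20.5 ± 2.59 CPM in control (0.45, adjusted p = 0.00104). Abhd3 (-0.28, adjusted p = 0.0461) lost its call in 12 of 18 alternatives, with adjusted p up to 0.114.

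Ppt1 belongs to the genes of neuronal ceroid lipofuscinosis, inherited disorders of lysosomal storage. Of 12 others, 5 were higher and none lower in hypoxia in edgeR (41.7% called, beside 22.9% of all genes; median log2 fold change 0.04). With the replicate block 3 were higher. Kctd7 was at 40.6 ± 3.07 CPM in hypoxia and 33.6 ± 2.37 CPM in control (0.27, adjusted p = 0.00284). Cln8, which encodes an endoplasmic reticulum protein, was at 42.3 ± 2.0 CPM in hypoxia and 35.9 ± 2.86 CPM in control (0.23, adjusted p = 0.00516). Dnajc5 (0.10, adjusted p = 0.0269) and Ctsd (0.12, adjusted p = 0.0316) lost their calls in 3 and 6 of the 18 alternatives. Exons of Ctsd share 34.4% of their bases with Gm49369, so its value is uncertain.

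Genes that make, carry or use palmitate and its coenzyme A ester gave 1 higher and 4 lower of 18 (27.8% called, beside 22.9% of all genes; median 0.02). Acsl6, a brain acyl-CoA synthetase, fell to 91.2 ± 0.978 CPM in hypoxia, against 111 ± 5.30 CPM in control (log2 fold change -0.28, adjusted p = 5.70e-05). Slc27a1, a fatty acid transporter, fell to 32.7 ± 1.8 CPM in hypoxia, against 39.2 ± 3.83 CPM in control (-0.27, adjusted p = 0.00594). Acly, the ATP citrate lyase that makes cytosolic acetyl-CoA, was at 784 ± 31.2 CPM in hypoxia and 710 ± 35.2 CPM in control (0.14, adjusted p = 0.0164). Acacb and Fabp7, also lower, lost their calls in 8 and 13 alternatives, Fabp7 among others without control 1 and control 2 together, and fatty acid synthase, Fasn, was not called (0.08, adjusted p = 0.553).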

How the data were processed

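Libraries were made from polyadenylated RNA with a TruSeq kit (v2) that keeps no strand information and read as 50 bp single ends, per the labels' protocols. For each library the authors deposited whole-number read counts, not normalized, by Ensembl gene ID. The submitters' processing notes name the build mm10 and the tools STAR 2.5.2b, Subread 1.5.1 with featureCounts, FastQC 0.11.5 and DESeq2. Which annotation, strand option and multi-mapping rule were used is not given in the sources used here. The authors also deposited 2 tables of called genes with log2 fold changes and adjusted p-values, per the file headers. Their 22 per-library columns were not used.

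Symbols were matched by gene ID for 48349 of 48709 IDs. Counts were filtered with filterByExpr and scaled by TMM, and the groups were compared with the quasi-likelihood F test of edgeR 4.0.16 (R 4.3.3), 2-sided and with no covariate. The SE is the size of the log2 fold change divided by the square root of F. Tested genes held 99.9% of the counts. The alternatives were size factors of DESeq2 1.42.0 in edgeR, the DESeq2 test, no filter, robust dispersion, a replicate block and each library left out. Leaving out control 1 and control 2 together, a lowess correction for transcript GC content (values for 86.3% of tested genes) and the length of all annotated exons in place of the principal transcript were chosen after seeing the data.

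The 9 genes and all lists were chosen with earlier results of these data known. The genes named were the 9 members, the 3 called genes with the smallest p of each list, the 5 genes most like Lypla1 by either measure, the genes beside Lypla1 and those overlapping a member, while every other gene named, such as Selenok, Golga7b, Abhd3, Dnajc5, Ctsd, Acacb, Fabp7 and Fasn, was picked with its values in view. A few of the genes counted are not reported here. Identity was computed on aligned coding bases of the principal transcripts in place of proteins.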

Additional observations from a re-analysis of the deposited data

Results flagged for a closer look

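In 4 of 114 groups of libraries examined, 1 library lay far from the others of its group by Dixon's test, and chance gives about 1 in 20. Abhd2 was at 200.6 CPM in hypoxia 4, against 211 to 214 CPM in the other hypoxia libraries. Acsl6 was at 121 CPM in control 1, against 108 to 112 CPM in the other control libraries. The summed endothelial and fibroblast markers were at 196 CPM in hypoxia 5, against 111 to 131 CPM in the other hypoxia libraries. The share of Abhd17b in the summed level of the Abhd17 trio, per kb of all annotated exons, was 18.4% in hypoxia 1, against 22.9 to 24.6% in the other hypoxia libraries. No level of a single depalmitoylase gene had such a library.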

How the results depend on the processing

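The log2 fold change of Lypla1 ran from -1.06 to -0.81 when single libraries were left out, and that of Abhd17b from -0.39 to -0.26 over all alternatives. Over all genes, 1300 to 2396 were higher and 1500 to 2345 lower over the alternatives, and no result changed direction while called. The labels do not say that replicate numbers pair the libraries. Deviations of same-numbered libraries had r from -0.38 to 0.37, and 2 of 5 hypoxia libraries were most like the control of their own number. These values cannot tell whether some same-numbered libraries shared an isolation or preparation. With the replicate block, which leaves out control 6, Lypla1 was at -0.98, 1300 genes were higher and 1637 lower, 3 lipofuscinosis genes were higher, 1 other ABHD gene was lower (also 1 with DESeq2 size factors and 1 with no filter), 0 neuron markers were higher, 2 astrocyte markers were lower and 1 neighbouring gene was called. DESeq2 called 8 palmitoylated neuronal proteins higher. Per kb of all annotated exons the ratio of Lypla2 to Lypla1 was 14.5 in hypoxia and 7.53 in control, and the share of Lypla1 1.41% in hypoxia and 2.58% in control. With no filter 32988 genes were tested. Without control 1 and control 2 together, 1 lipofuscinosis gene was lower, 2 palmitate supply genes higher, 2 neuron markers lower, 1 astrocyte marker higher and 0 lower, and 1 endothelial and fibroblast marker lower. With the GC correction 1 cofactor gene was higher, 2 palmitate supply genes were higher, 1 neuron marker lower and 2 astrocyte markers lower. Leaving out single libraries gave 0 to 1 cofactor genes higher and 1 to 2 lower, 3 to 6 neuronal proteins higher, 1 to 2 other ABHD genes lower (1 without control 2, 3, 4, 5 or 6 or hypoxia 1, 2, 3 or 4), 1 to 2 palmitate supply genes higher (2 without hypoxia 1) and 2 to 4 lower (2 without control 3, 4 or 5 or hypoxia 1 or 4). It gave 0 to 1 neuron markers higher (0 without control 3 or 6 or hypoxia 1 or 3) and 0 to 1 lower (1 without control 1 or 2), 0 to 3 astrocyte markers lower (3 without control 6, 2 without hypoxia 5 and 0 without control 1, 2, 3 or 4 or hypoxia 1, 2 or 4), 0 to 2 endothelial and fibroblast markers lower (1 without control 1 and 2 without hypoxia 5), and 2 to 4 neighbouring genes called (2 without control 3, 4 or 6). The cause of these changes was not tested. Counts of 210 to 484 in hypoxia limit the precision of Lypla1 per library.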
